A study of Homo sapiens with 19 samples.

Results

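The genes described here are 10 regulators and surface markers of the blood and endothelial lineages: TAL1, LMO2, RUNX1, GATA1, ETV2, FLI1, ERG, HHEX, CD34 and PECAM1. They were chosen by name, and their array features were found through the RefSeq transcript that the array output gives for each feature. The 10 genes had 18 features, out of 50683 features on the array, of which those with a matched transcript stood for 20503 genes. The arrays followed KhES-3 cells, which are human embryonic stem cells kept as a line, during induction towards brown adipocytes (BAs). The medium was serum-free and carried a hematopoietic cytokine cocktail of IGF-II, BMP4, VEGFA, KITLG, FLT3LG and IL-6, in low-attachment dishes, and every sample received it. The groups were 19 times after the start of induction, with 1 array each: from 4 to 16 h every 2 h, with a further one at 3 h, then from 20 to 36 h every 4 h, and from 42 to 72 h every 6 h. There was no uninduced sample among them, and all cells were of 1 line. The growth protocol in the labels has the cells on irradiated mouse embryonic fibroblasts, whereas the methods of the study describe a feeder-free culture.

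In the embryo, blood and endothelium arise from a shared mesodermal progenitor. ETV2, an ETS factor, acts at the top of this step and switches on TAL1, a basic helix-loop-helix factor, LMO2, which bridges TAL1 and GATA factors on DNA, and the ETS factors FLI1 and ERG. RUNX1, which pairs with CBFB, is required for blood stem cells to leave the endothelium, GATA1 then drives red cell and platelet development, and CD34 and PECAM1 are surface proteins of progenitors and vessels.

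Signals are processed intensities scaled to a common 75th percentile of 871 per array, and differences and slopes are on the log2 scale. The arrays lay on 3 slides: slide 1 held the 6 arrays from 3 to 12 h, slide 2 the 8 arrays from 14 to 42 h and slide 3 the 5 arrays from 48 to 72 h, which were scanned on a later day. Each slide thus held its own stretch of hours, so a difference between slides cannot be told apart from a difference in time. The early means below come from slide 1 alone and the late means from slide 3 alone, so their differences share this limit. Between 49.6% and 64.7% of the probes were well above background on an array (median 61.0%), with the lowest shares at 14, 16 and 72 h. The lowest signal that the array software called well above background ranged from 19.7 to 73.5 (median 25.6) and was highest at 14 h. It is not a cutoff, because some readings above it were not called. All 5 markers of pluripotent cells (POU5F1, NANOG, SOX2, LIN28A, DPPA4) were well above background on each of the 19 arrays. POU5F1 (slope -0.00661 per hour, limma, adjusted p = 0.000259) and LIN28A (-0.00392, adjusted p = 0.0142) fell while the others did not pass. Of the 7 mesoderm markers, MESP1, HAND1 and TBX6 rose over the 72 h and TBXT, MIXL1, EOMES and PDGFRA did not pass the test. Of the 6 markers of definitive endoderm, CER1 fell and SOX17, FOXA2, GATA4, GATA6 and CXCR4 did not pass. Of the 6 fibroblast markers, COL1A1 and COL1A2 were detected on all 19 arrays in this sense, DCN on 9, POSTN on 2, and COL3A1 and LUM on 1 each, and COL1A2 rose. None of these marker genes was called in either direction with the slide as a block, where 4.71% of all probes rose and 4.47% fell. The part of these other cell types in the values below was not tested.

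The 10 genes fell into those that were measured and those that were not. LMO2 and ETV2 were well above background on all 19 arrays, RUNX1 on 18, HHEX on 16, FLI1 on 14 and TAL1 on 6. GATA1, ERG and CD34 were not well above background on any array, and no feature of PECAM1 was on more than 1. Trends were tested for the 6 genes with at least 5 such arrays, with the brightest feature of each gene. Over the 72 h, RUNX1, LMO2 and FLI1 fell, ETV2 rose and TAL1 and HHEX did not pass the test. Among all 32113 probes tested, 30.9% rose and 22.4% fell, beside 1 and 3 of these 6 genes. The median slope was -0.00462 per hour over the 6 genes and 0.00236 over all probes. A cubic curve in hours, which also finds genes that fall and rise again, was called for 3 of the 6 (LMO2, RUNX1 and FLI1). Among all probes it was called for 76.8%, and these shares were not compared by a test. With the slide as a block, none of the 6 rose (4.71% of all probes), RUNX1 alone fell (4.47%), and RUNX1 and ETV2 had a cubic curve (31.6%).

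**Figure D1:**
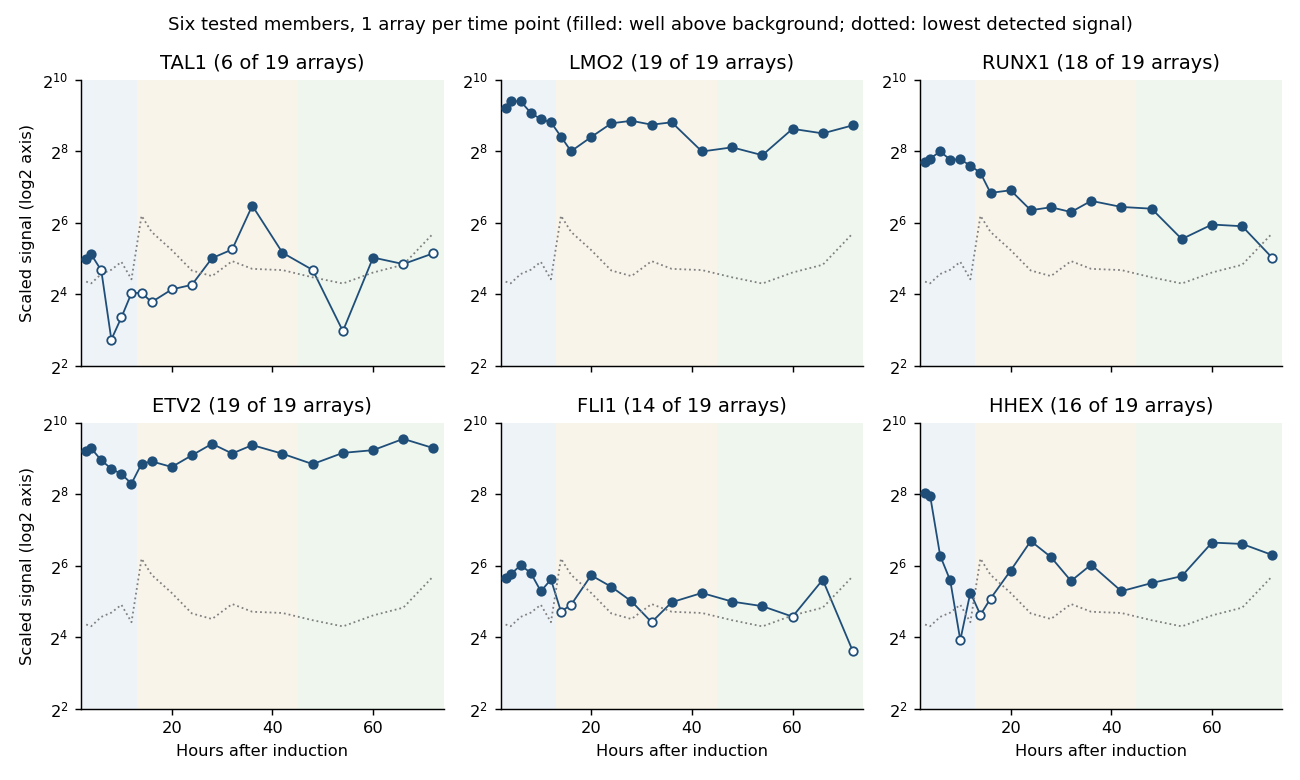
Scaled signal (vertical axis, log2) of TAL1, LMO2, RUNX1, ETV2, FLI1 and HHEX against hours after induction, with 1 array per point, shading for the 3 slides, filled points where the feature was well above background and open points where it was not; the dotted line is the lowest signal called well above background on that array. RUNX1 went down from 209 at 3 h to 59.9 at 66 h. HHEX dropped from 264 at 3 h to a reading not well above background at 10 h, and LMO2 and ETV2 stayed at or above 237 and 314.

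The promoters of the measured genes are shown because they are where the factors named here could act on each other. RefSeq (GRCh38.p14) gave 250 bases upstream of a start for 7 of the 10 genes, in 11 entries, and LMO2, FLI1 and PECAM1 had none. Each was searched on both strands for AGATAA (the GATA motif), CCGGAA (ETS), TGTGGT (RUNX) and CAGCTG (an E-box of the kind that helix-loop-helix factors bind), and matches are in capitals. Of 35116 promoters of this length, 9.17% held the GATA motif, 14.5% the ETS motif, 10.98% the RUNX motif and 14.0% the E-box. The sequences below are those of ETV2 (chr19:35641495-35641744, plus strand), RUNX1 (chr21:34888700-34888949, minus strand), TAL1 (chr1:47232336-47232585, minus strand) and HHEX (chr10:92689705-92689954, plus strand), each 5′ to 3′ and ending at the base before the start.
ETV2: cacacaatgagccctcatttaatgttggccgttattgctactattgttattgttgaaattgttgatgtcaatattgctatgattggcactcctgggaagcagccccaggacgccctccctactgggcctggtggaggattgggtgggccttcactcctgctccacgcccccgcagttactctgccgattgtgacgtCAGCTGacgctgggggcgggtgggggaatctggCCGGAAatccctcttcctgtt
RUNX1: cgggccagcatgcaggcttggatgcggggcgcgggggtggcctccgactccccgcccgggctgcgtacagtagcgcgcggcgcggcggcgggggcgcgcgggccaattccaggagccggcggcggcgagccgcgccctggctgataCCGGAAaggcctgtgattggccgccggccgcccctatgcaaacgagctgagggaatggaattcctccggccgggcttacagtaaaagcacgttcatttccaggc
TAL1: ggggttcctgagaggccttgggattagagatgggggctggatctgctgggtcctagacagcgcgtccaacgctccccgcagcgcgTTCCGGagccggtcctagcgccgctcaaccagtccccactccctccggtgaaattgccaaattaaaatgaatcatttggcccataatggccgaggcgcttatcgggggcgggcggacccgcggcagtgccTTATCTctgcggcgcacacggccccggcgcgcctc
HHEX: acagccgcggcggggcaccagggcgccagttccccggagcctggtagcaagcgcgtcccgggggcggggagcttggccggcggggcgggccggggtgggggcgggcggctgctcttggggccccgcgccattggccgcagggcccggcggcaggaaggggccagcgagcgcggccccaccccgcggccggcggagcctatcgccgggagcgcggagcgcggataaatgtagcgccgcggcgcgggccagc
The ETV2 stretch held an ETS match that began 21 bases before the start and an E-box 54 bases before it. The RUNX1 stretch, which lies inside the gene because a longer transcript starts further upstream, held an ETS match 104 bases before its start. The TAL1 stretch held a GATA match 35 bases and an ETS match 165 bases before the start, and a further TAL1 start had 3 RUNX matches. The HHEX stretch held none of these letters and was 81.2% G and C, against a median of 58.0% over all promoters. Beyond these, ERG had a GATA match in 2 of its overlapping entries, and the CD34 and GATA1 entries had no match. A match is a description of the letters and does not show that a factor binds there.

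ETV2, the factor at the head of the programme, was well above background throughout. Its signal was 588 at 3 h and 622 at 4 h, 314 at 12 h, its lowest, and 747 at 66 h, its highest, with a median of 560.3. By slide it ran from 314 to 622, from 434 to 679 and from 458 to 747, so the slides overlapped. Each array from 6 to 12 h read lower than the one before it, and the later arrays moved between 434 and 747. The mean over 3, 4 and 6 h was 565 and that over 60, 66 and 72 h was 654, a log2 difference of 0.21. The slope was 0.00738 per hour (SE 0.00288, limma, adjusted p = 0.0375). The direction of the late minus early difference depended on the scaling. It was -0.16 with each array scaled to its median and -0.43 with spike-in RNA, the known transcripts put into each sample as a standard. The slope was 0.00212 with the array median (limma, adjusted p = 0.586) and -0.00108 with the spike-in RNA (adjusted p = 0.869). With a slide block it was 0.0111 per hour, with an adjusted p of 0.432 in limma, while the cubic curve was called with the block (adjusted p = 0.0196) and not without it (adjusted p = 0.119). Within slide 1 the slope was -0.108 per hour over 6 arrays, with the smallest p that an exact permutation test of 6 arrays allows (0.00278), and 0.0583 after adjustment over the 21 tests of 7 features on 3 slides. On slides 2 and 3 it was 0.0163 and 0.0214, and these differences between slides were not tested. The second ETV2 feature was well above background on 16 arrays, not at 14, 16 and 20 h. It went from 95.7 at 4 h to 45.2 at 10 h and reached 107 at 66 h, and its slope of 0.00879 did not pass (limma, adjusted p = 0.0871).

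TAL1, a partner of LMO2 and a defining factor of the blood programme, was near the limit of detection. Only 6 readings were well above background, namely 31.9 (3 h), 34.7 (4 h), 32.3 (28 h), 89.2 (36 h), 35.8 (42 h) and 32.7 (60 h). Over all arrays the signal ran from 6.66 at 8 h to 89.2 at 36 h with a median of 25.7. The 36 h value stood alone, since its neighbours read 38.2 at 32 h, not well above background, and 35.8 at 42 h. The late mean of 32.2 and the early mean of 30.4 differed by 0.08, and the slope of 0.0115 (SE 0.00889) did not pass (limma, adjusted p = 0.284). Within slide 2 the slope was 0.0740 per hour over 8 arrays, of which 3 were well above background (exact permutation p = 0.0112, adjusted 0.118).

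LMO2 is the LIM-only adaptor that joins TAL1 to GATA factors. Its signal was 589, 677 and 673 at 3, 4 and 6 h and 395, 362 and 424 at 60, 66 and 72 h, a drop in the mean from 645 to 393 and a log2 difference of -0.72. The course was not a steady fall. It reached 256 at 16 h, was between 429 and 462 from 24 to 36 h, and was 255 at 42 h and 237 at 54 h, the lowest, before the last 3 arrays. The feature was spotted repeatedly, with 8 to 10 usable spots per array, and the spots of an array had an SD of 0.0375 to 0.107 (median 0.0703) on the log2 scale, which measures the array and not the culture. The slope was -0.0105 per hour (SE 0.00405, limma, adjusted p = 0.0350). Omitting the 14, 16 and 72 h arrays made it -0.0163, the arrays up to 54 h gave -0.0222, and spike-in scaling gave -0.0190. With the slide as a block its sign turned, to 0.00967 (adjusted p = 0.560 in limma). Within the slides the slope was -0.0613 on slide 1 (exact permutation p = 0.0403, adjusted 0.193), 0.00487 on slide 2 and 0.0307 on slide 3. The call was also lost without the 3, 4, 6, 8, 48 or 54 h array and with no filter on background (adjusted p = 0.0587 in limma).

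RUNX1, the Runt factor of emerging blood stem cells, fell the most of the 6 genes. Its brightest feature carries the transcript NM_001001890, known as AML1b. It read 209, 222 and 255 at 3, 4 and 6 h and 61.9, 59.9 and 32.4 at 60, 66 and 72 h, the last not well above background. By slide the signal lay between 194 and 255, between 78.9 and 168, and between 32.4 and 84.2. Slides 1 and 2 did not overlap and slides 2 and 3 did. The mean went from 228 to 49.3, a log2 difference of -2.21 that includes the 72 h reading, below the lowest detected signal of its array (52.4). The slope was -0.0361 per hour (SE 0.00333, limma, adjusted p = 7.1e-08). The fall was also called with the slide as a block (slope -0.0303, adjusted p = 0.0244 in limma) and the slope was below 0 within each slide: -0.0149, -0.0266 and -0.0399. None of these within-slide slopes passed alone, the smallest exact permutation p being 0.0459 on slide 2 (adjusted 0.193). With any 1 array omitted the slope stayed from -0.0386 to -0.0348 and was called each time. Averaging its detected features in place of taking the brightest gave -0.0143 (adjusted p = 0.000311 in limma).

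RUNX1 had 4 other features, and they did not all follow the brightest. They are named by the transcript that the array output gives, and whether a probe is specific to 1 transcript was not checked. A feature on NM_001122607, the shorter AML1a transcript whose protein lacks the activation domain, was well above background on all 19 arrays. It read 62.7, 59.1 and 67.5 at 3, 4 and 6 h and 93.5, 90.5 and 115 at 60, 66 and 72 h, with its highest value, 151, at 28 h. Its values on slide 1 were all between 55.6 and 67.7 and those on slides 2 and 3 all between 82.9 and 151, so the step fell between 12 and 14 h, where the slide changes. The mean went from 63.0 to 99.1, a log2 difference of 0.65, and the slope was 0.01 per hour (SE 0.00305, limma, adjusted p = 0.00968). That rise was not called with the slide as a block (0.00654, adjusted p = 0.562 in limma), with scaling to the array median (adjusted p = 0.112, difference 0.28), with the spike-in RNA (adjusted p = 0.827, difference 0.01) or with normexp and quantile normalization (adjusted p = 0.136). The log2 ratio of this feature to the brightest, which no scaling changes, went up by 2.86 between the early and late arrays, again with the 72 h reading included, with slide means of -1.83, -0.08 and 0.80. Its zero has no meaning, because the 2 features have different probes, and the change in the ratio was not tested. A dimmer AML1b feature, well above background on 13 arrays, had a slope of -0.0167 that did not pass (limma, adjusted p = 0.0645), with 204 at 20 h against 33.8 at 16 h and 21.9 at 24 h. Of the last 2 features, another on AML1a was well above background at 3 and 48 h and another on AML1b on no array.

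**Figure D2:**
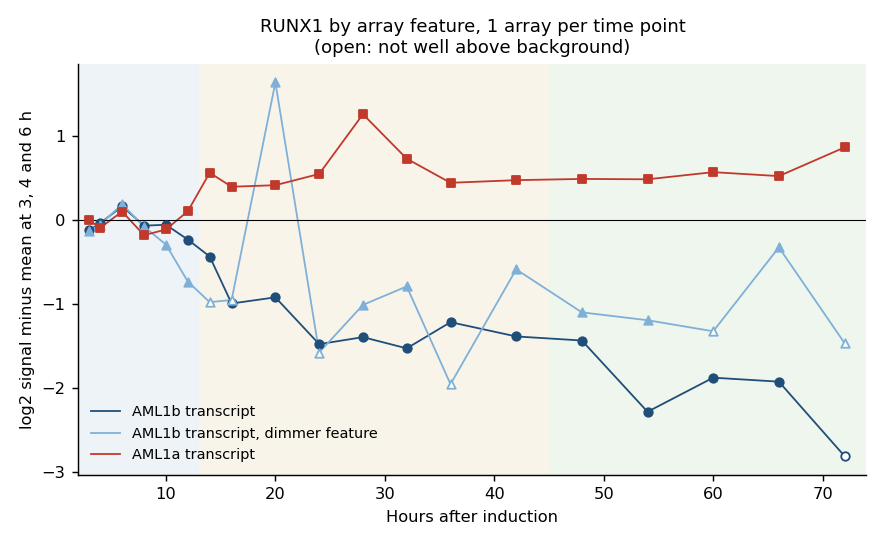
Log2 signal of 3 RUNX1 features minus the mean of the same feature at 3, 4 and 6 h (vertical axis) against hours after induction, with 1 array per point and shading for the 3 slides; open points were not well above background. The brightest AML1b feature changed by -2.21 and the AML1a feature by 0.65 over the last 3 arrays, of which the 72 h reading of the former was not well above background, and the dimmer AML1b feature had a single high array at 20 h.

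FLI1, an ETS factor of megakaryocytes and endothelium, fell from a low level. It read 50.1, 54.2 and 64.7 at 3, 4 and 6 h and 23.8, 48.7 and 12.2 at 60, 66 and 72 h, where only the 66 h value was well above background. The 5 arrays on which it was not well above background were those at 14, 16, 32, 60 and 72 h. The mean readings were 56.0 early and 24.2 late (log2 difference -1.21), but with 1 of the 3 late arrays well above background the size of this difference was not measured. The slope was -0.0168 per hour (SE 0.00478, limma, adjusted p = 0.00617). Leaving out the 72 h array ended the call (slope -0.0113, adjusted p = 0.0583 in limma), as did the slide as a block (-0.0137, adjusted p = 0.567). ERG, its close relative, was not well above background on any array and ran from 4.97 to 16.4 (median 6.48), with its highest reading at 14 h.

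HHEX is a homeobox repressor of early endothelium, blood and endoderm. It had the steepest early change of the 6 genes. Its signal was 264, 249, 77.7 and 48.1 at 3, 4, 6 and 8 h. It was then not well above background at 10, 14 and 16 h, with 38.0 at 12 h between them. It was back at 103 at 24 h, read 39.0 at 42 h and was 100.2, 97.6 and 78.7 at 60, 66 and 72 h. The values at 3 and 4 h were above all 17 later ones. From 3 to 12 h the log2 signal changed by -2.80, at a slope of -0.410 per hour over the 6 arrays of slide 1 (exact permutation p = 0.0208, adjusted 0.146). The early mean of 172 and the late mean of 91.6 differed by -0.91, but neither the straight line (slope 0.00126, SE 0.0104, limma, adjusted p = 0.929) nor the cubic curve (adjusted p = 0.144) passed over the 72 h. The sign of the slope was not fixed and turned under several settings.

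GATA1, CD34 and PECAM1, the markers of cells already in the blood or endothelial lineage, had no measured level. GATA1, the red cell and platelet factor, ran from 4.42 to 16.7 (median 8.61). The 2 CD34 features ran from 4.90 to 16.3 and from 7.85 to 25.3, and none of these readings was well above background. The highest readings of GATA1, ERG and the dimmer CD34 feature were all at 14 h. On that array the lowest signal called well above background was the highest of all arrays, so these readings carry no order. PECAM1, the adhesion protein CD31, had 3 features. One was well above background at 54 h (31.7), another at 10 h (141) and the third on no array. At 10 h the other 2 features read 11.5 and 9.55, neither well above background, so the high value was seen by 1 feature of 3. No fold change is given for these genes, since no level was measured in either window.

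**Figure D3:**
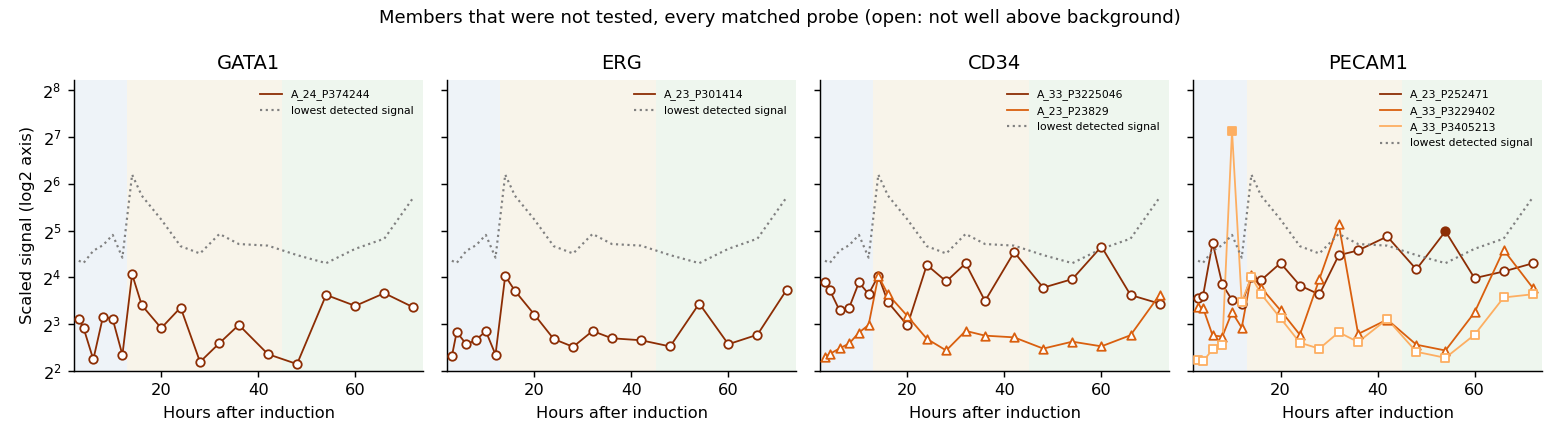
Scaled signal (vertical axis, log2) of each feature of GATA1, ERG, CD34 and PECAM1 against hours after induction, with 1 array per point and shading for the 3 slides; open points were not well above background and the dotted line is the lowest signal called well above background on that array. All points but 2 are open, both of PECAM1, at 10 h (141) and at 54 h (31.7).

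The genes around these regulators were counted in 5 lists with 68 genes, of which 67 had a feature and 57 could be tested. Of the 57, 13 rose and 12 fell, beside the 30.9% and 22.4% of all probes. With the slide as a block 1 rose and 2 fell, beside 4.71% and 4.47% of all probes. The balance turned with the scaling, to 7 rising and 19 falling with the array median and 3 rising and 20 falling with the spike-in RNA, where 4678 and 1489 of all probes rose and 11117 and 11186 fell. Their median slope was 0.00162 per hour. The features never well above background were those of RUNX2, EMCN, a vessel sialomucin, and HBE1, the embryonic globin.

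Partners of the TAL1, LMO2, GATA1 and RUNX1 complexes were mostly present and none rose. Of 14 genes 12 were tested, and LMO4, TCF3 and TCF4 fell. Among all probes 30.9% rose and 22.4% fell, and the shares were not compared by a test. TCF3, which encodes the E proteins that pair with TAL1, went from an early mean of 18919 to a late mean of 11271 (log2 difference -0.75, limma, adjusted p = 1.1e-06). TCF4, of the same family, differed by -0.85 and LMO4, a LIM-only relative of LMO2, by -0.57. CBFB, the partner of RUNX1, ran from 803 to 1466 and its slope did not pass (limma, adjusted p = 0.907). LDB1, which holds the LMO2 complex together, ran from 499 to 746 (adjusted p = 0.416 in limma). GATA2, named after its values were seen, had its highest signal at 3 h, 352, its lowest at 24 h, 23.7, and 80.0 at 72 h, a course that the cubic curve called (limma, adjusted p = 1.6e-05) and the straight line did not (adjusted p = 0.251).

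Among 10 blood transcription factors, 8 were tested, 3 rose and 2 fell, beside 30.9% and 22.4% of all probes. MYB, a factor of blood progenitors, had an early mean of 827 and a late mean of 1662 (log2 difference 1.01, limma, adjusted p = 0.0370). Its single readings were uneven: 1481 at 3 h, 371 at 6 h (the lowest), 2726 at 60 h (the highest) and 1009 at 72 h. Blocking on slide turned the sign of the MYB slope, to -0.00792 (limma, adjusted p = 0.787). CEBPA, a myeloid factor, went from 603 to 686 (0.19, adjusted p = 0.0109). IKZF1, a lymphoid factor, differed by -1.02 and BCL11A, a repressor of fetal globin, by -0.60, both called. The third gene that rose, GFI1B, was well above background on only 9 arrays. Of 15 endothelial and ETS transcription factors, 12 were tested, and ETS2 (-0.86), GABPA (-0.43) and ETV6 (-0.50) fell, beside 22.4% of all probes. The 1 that rose, NR2F2, a factor of veins, was well above background on 7 arrays, none of them more than 57.6 in signal.

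Of the 16 endothelial surface genes 14 were tested, and 5 rose and 4 fell, beside 30.9% and 22.4% of all probes. KDR, a receptor for VEGFA, went from 2364 to 5969 (log2 difference 1.34, limma, adjusted p = 1.0e-05), NOS3, the endothelial nitric oxide synthase, from 439 to 1349 (1.62), and TIE1, an orphan receptor of vessels, from 63.7 to 98.7 (0.63). TEK, the angiopoietin receptor, fell from 1016 to 219.6 (log2 difference -2.21, limma, adjusted p = 8.0e-09), and MCAM, an adhesion protein (-1.30), and FLT1, another VEGFA receptor (-0.67), fell too. TEK and MCAM were the 2 that also fell with the slide as a block (adjusted p = 0.000696 and 0.0315 in limma), beside 4.47% of all probes. Of the 13 blood cell genes, 11 were tested, 4 rose and none fell, beside the same shares of all probes. PTPRC, the leukocyte antigen CD45, went from 69.4 to 148 (1.09), ITGA2B, the platelet integrin, from 176 to 256 (0.53) and EPOR, the erythropoietin receptor, from 611 to 922 (0.59). The differences of TIE1, ITGA2B and EPOR were each under 0.65, so none stayed above 0.01 with the spike-in RNA. ITGA2B was the gene that also rose with the slide as a block (limma, adjusted p = 0.0499), beside 4.71% of all probes. Fewer cells of a type and less RNA per cell cannot be told apart in these bulk samples.

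**Figure D4:**
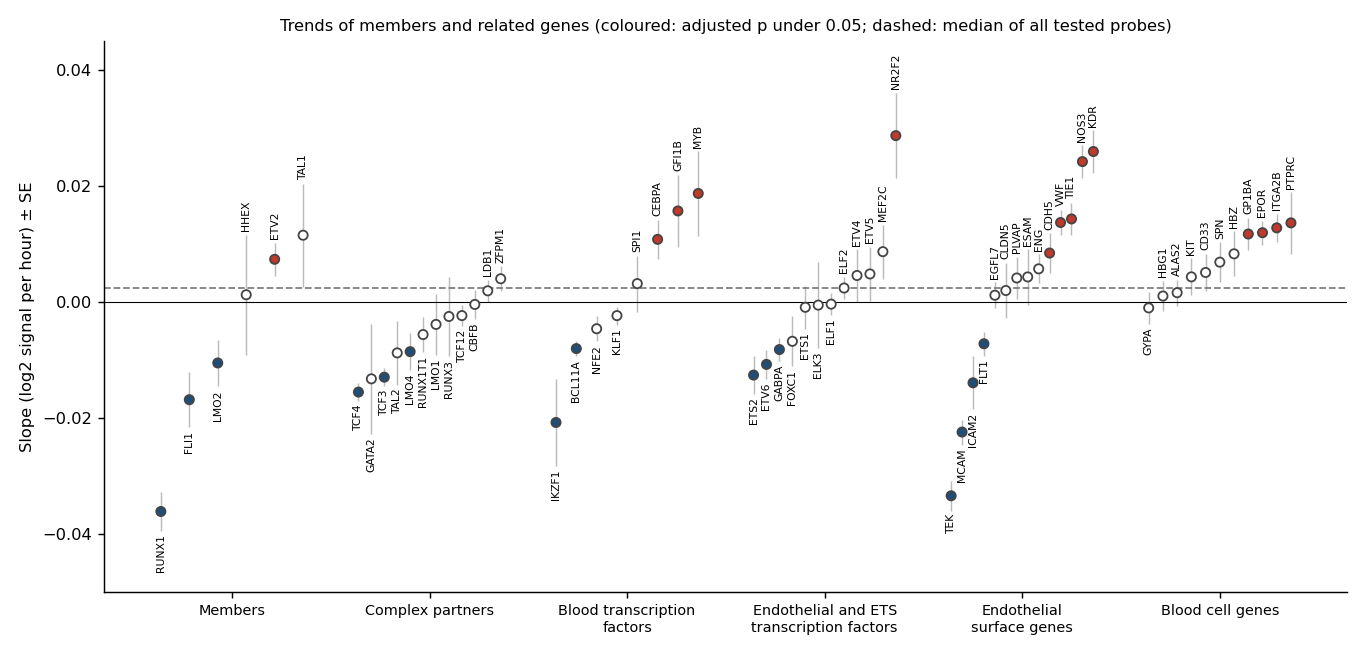
Slope of log2 signal per hour with its SE (vertical axis) for the 6 tested regulators and for 57 related genes in 5 lists, 1 point per gene, red where it rose and blue where it fell at an adjusted p under 0.05 and white otherwise; the dashed line is the median of all 32113 probes, 0.00236. RUNX1 (-0.0361) lies lowest of all points, with TEK (-0.0334) next.

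For the 4 genes with a feature well above background on at least 15 arrays (LMO2, RUNX1, ETV2 and HHEX), which leaves out FLI1 and TAL1, the genes with the most similar courses were ranked by Pearson's r over the 19 arrays among about 13968 genes well above background on all of them. The arrays share slides and the same passage of time, so many genes move together, and r is given as a description. RUNX1 (the brightest feature) was most like SNTB1 (r = 0.984), BAG1 (0.971) and LIN28B (0.969), which kept r of 0.896, 0.815 and 0.799 after each slide's mean was subtracted. LMO2 was most like ADD2 (0.928), CYRIA (0.911) and UBALD2 (0.907), with 0.851, 0.804 and 0.791 after subtraction. ETV2 was most like CHRD (0.861), LRRCC1 (0.823) and GPR137B (0.798), with 0.823, 0.804 and 0.739. HHEX was most like LIN54 (0.920), EPOP (0.904) and RUNX3 (0.896), with 0.917, 0.899 and 0.897, so slide means carried little of its likeness. The AML1a feature of RUNX1 was most like SPRNP1 (0.922), LINC01160 (0.919) and HOXB-AS3 (0.916), whose r dropped to 0.757, 0.710 and 0.717. Ranking on r after subtraction gave other genes in part. SNTB1 and BAG1 stayed among the top 3 for RUNX1 and LIN54 for HHEX, whereas LMO2 was then most like CXXC5, NOCT and OSBPL6, ETV2 most like DPH5, PTGR3 and ZC3H12A, and the AML1a feature most like RASSF3, TRIM68 and PARVB. RUNX3, a relative of RUNX1 and itself on the list of complex partners, ran from 1247 at 4 h to 232 at 42 h, and its slope did not pass (limma, adjusted p = 0.781).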

How the data were processed

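Expression was measured on one-colour Agilent arrays with 62976 spots. The authors deposited the output of Agilent Feature Extraction 10.10.1.1 for each array, in which the processed intensity of a spot is background-subtracted and not scaled between arrays, and a table of the same intensities times 1 factor per array. No spot was saturated, and flagged spots (0.632%) were left out. From the deposited intensity, log2 values were taken for 50683 probes after scaling to the 75th percentile of each array (655 to 1003, median 922). Of the probes, 28174 matched a RefSeq accession.

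Slopes on hours came from limma 3.58.1 (lmFit, eBayes) in R 4.3.3. The 32113 probes that 5 or more arrays called well above background entered, with Benjamini-Hochberg adjustment and a threshold of 0.05. With no replicates, p-values measure scatter around the line, and precision is limited by how few arrays there are. The fit was tested on simulated data before use, with independent noise and no slide effect. It recovered 36 of 100 probes given a slope of 0.01 per hour in either direction and 93 of 100 given 0.03, with 7 false calls. Only 200 of the 32113 simulated probes were given a slope, a far smaller share than was called in the data. These rates therefore need not hold for the real fit. Calls that a slide difference could make were not covered by the simulation. Within slides, two-sided exact permutation tests were used (scipy 1.17.1).

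Named are all 10 regulators, the markers, up to 3 rising and 3 falling genes per list on at least 10 arrays, and the 3 most alike. The genes and lists were chosen with earlier results of these data known. Alternatives were scaling to the array median or to the spike-in RNA (7 of 10 levels), normexp (offset 50, on median pixel intensity, the signal the files hold) with quantile normalization, the deposited table, other filters, the slide block, 3 to 54 h, log2 hours, the mean of probes and each array left out. Leaving out the 14, 16 and 72 h arrays together was added after seeing the data. Other experiments of the study were not analysed here.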

Additional observations from a re-analysis of the deposited data

How the results depend on the processing

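The fall of RUNX1 was called in all 19 fits with an array left out and all 10 other settings that tested it, with a slope per hour from -0.0446 (spike-in RNA) to -0.0143 (mean of probes). The count of rising regulators went from 1 to 0 under scaling to the array median, the spike-in RNA, the deposited table, normexp with quantiles, no filter, the slide block, the arrays from 3 to 54 h, log2 hours and without the 14, 16 and 72 h arrays; it was 0 to 1 with each array left out, ETV2 being lost without the 8, 10, 12, 60, 66 or 72 h array. The falling count of 3 was 1 under the filter on all 19 arrays, which leaves RUNX1 and FLI1 untested, and 1 with the slide block (2 to 3 with an array left out). The cubic count of 3 was 1 under that filter and 2 with the slide block, RUNX1 and ETV2 (3 to 3 with an array left out). It was 4 in other settings, with HHEX added under normexp with quantiles, TAL1 from 3 to 54 h and ETV2 with the mean of probes. LMO2 reversed to 0.00967 with the slide block and ETV2 to -0.00108 with the spike-in RNA (adjusted p = 0.869 in limma). HHEX, not called in any straight-line fit, reversed to -0.00400 (array median), -0.00720 (spike-in RNA), -0.00603 (normexp), -0.0103 (deposited table), -0.0153 (3 to 54 h), -0.00512 (without 14, 16 and 72 h) and -0.16 per doubling of hours, and ran from -0.00359 to 0.00852 with each array left out. Of the related genes, the rising count of 13 became 7, 3, 8 and 1 and the falling count of 12 became 19, 20, 15 and 2 under the array median, the spike-in RNA, normexp and the slide block (9 to 14 rising and 11 to 15 falling with an array left out). The cause was not tested. The median late minus early difference of all probes was 0.13, -0.24 and -0.52 under the 75th percentile, the array median and the spike-in RNA, and 57.9%, 29.6% and 11.7% of calls rose. No paired analysis was possible because a time point has no second array. Signals near 19.7 to 73.5, the lowest called well above background, limit TAL1, FLI1 and HHEX. Within the same range lay the brightest RUNX1 feature from 54 to 72 h (32.4 to 61.9) and the AML1a feature on slide 1 (55.6 to 67.7).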
